A study of Mus musculus with 6 samples.

Results

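Keratins, desmosome components and other epidermal genes were followed in RNA sequencing of cultured primary dermal fibroblasts, the collagen-producing cells of the skin. The set holds 39 genes, chosen by name as keratinocyte and epidermal genes of 8 classes, out of 43629 gene IDs in the tables. All 39 were matched. The cells came from the skin of newborn mice and were sequenced at passage 1 after 6 days of culture. In caNrf2 cultures (3 libraries), Col1a2Cre, a Cre recombinase expressed in fibroblasts, was joined with a mutant Nrf2 that is constitutively active; Nrf2 is the transcription factor behind many antioxidant and detoxification genes. In ctrl cultures (3 libraries) the mice carried Col1a2Cre only. Both groups shared Col1a2Cre and a mixed strain background of 50% C57Bl/6 and 50% FVB/N. The labels describe Cre in fibroblasts, so any keratinocytes in the cultures are not a cell type in which the mutant was described. The libraries were taken as separate mice, and the p-values below measure the spread between these 3 libraries of each group.

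Keratins are the intermediate filament proteins of epithelial cells and assemble from pairs of a type I and a type II chain. In epidermis, basal keratinocytes make Krt5 and Krt14, cells that leave the basal layer switch to Krt1 and Krt10, and wounded or cultured keratinocytes add Krt6a, Krt6b, Krt16 and Krt17. Simple epithelia use Krt8, Krt18, Krt19 and Krt7 instead. Desmosomes tie the keratin filaments of neighbouring cells together through cadherins (desmogleins and desmocollins), plakoglobin (Jup), plakophilins and desmoplakin (Dsp). The cornified envelope is the protein shell of the dead outer cells and contains involucrin (Ivl), loricrin (Lor), filaggrin (Flg) and small proline-rich proteins. Fibroblasts are known for vimentin rather than keratin filaments, although plakoglobin and some of the integrins are also found in cells without desmosomes.

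Library totals ranged from 30168250 to 45164071 expected counts. Nfe2l2, which encodes Nrf2, was 3.48-fold higher in caNrf2 at 380 ± 43.2 CPM, against 109 ± 5.87 CPM in ctrl (SD, n = 3 each; edgeR adjusted p = 5.96e-06), and the Nrf2 target Nqo1 was 25.3-fold higher (edgeR adjusted p = 1.38e-07). All 10 fibroblast markers of a marker list were above 1 TPM. Col1a1, the most abundant of them in ctrl, had means of 3632 TPM in caNrf2 and 5567 TPM in ctrl. TPM, a level scaled by the authors for transcript length and library size, is used here to compare genes with each other. CPM, counts scaled to a common library size with edgeR's normalization, is used for tests between groups.

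Summed over their members, the basal and activation keratin classes were abundant in every library of both groups. Krt15 and Krt6b of these classes were low, as were the suprabasal and simple-epithelial keratins. Of the 39 genes, 31 reached 1 TPM in at least 1 library and 8 stayed under 1 TPM in all 6. Krt14, Krt5, Krt6a and Krt17 were the abundant keratins in both groups, and Jup, Itga6 and Perp were the most abundant junction genes. Krt15, Krt1, Krt18, Krt8, Dsg2, Dsc2, Lor and Flg were the 8 that never reached 1 TPM. Summed over its members, the basal keratin class stood at 234, 391 and 334 TPM in caNrf2 libraries 1, 2 and 3. In ctrl libraries 1, 2 and 3 it stood at 269, 165 and 180 TPM. The suprabasal class, Krt1 and Krt10, lay between 1.24 and 1.74 TPM in caNrf2 and between 1.37 and 1.65 TPM in ctrl. Simple-epithelial keratins summed to 6.01 to 7.23 TPM in caNrf2 and 5.80 to 7.76 TPM in ctrl. Krt14 was 3.06%, 4.67% and 3.52% of the Col1a1 TPM in the caNrf2 libraries, and 2.44%, 1.14% and 1.21% in the ctrl libraries.

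**Figure D1:**
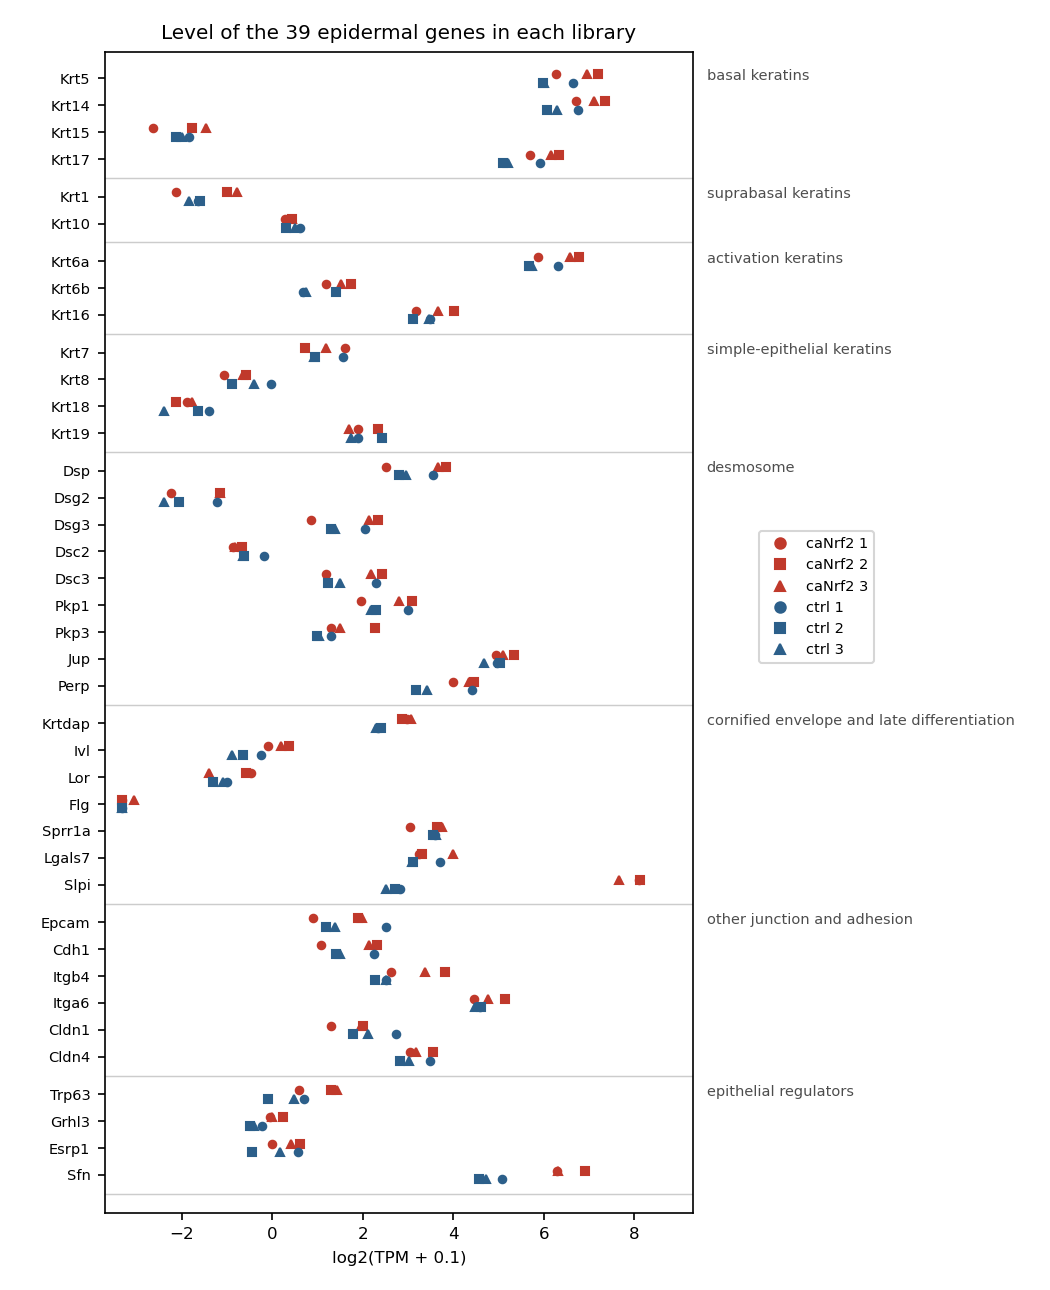
Level of each of the 39 genes, as log2(TPM + 0.1), in the 3 caNrf2 libraries (red) and the 3 ctrl libraries (blue), with marker shapes for the library number and genes grouped by class. Slpi and Sfn are the genes with the widest gap between the groups, with Slpi at 201 to 279 TPM in caNrf2 and 5.65 to 7.02 TPM in ctrl.

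Most of these genes were not called different between caNrf2 and ctrl. After the filter on low counts, 36 of the 39 were tested, without Krt15, Krt18 and Flg. Of these, 5 were called higher in caNrf2 (13.9% of those tested) and 0 lower by edgeR's quasi-likelihood test at a Benjamini-Hochberg adjusted p under 0.05. Over all 15341 genes tested, 21.5% were called, 12.5% higher and 9.03% lower, so the share called among the epidermal genes was near the background for higher genes. At an unadjusted p under 0.05, 13 were higher and 0 lower, and limma-voom called 6 higher and 0 lower. The 5 were Slpi, Sfn, Itgb4, Ivl and Krt14. Positive log2 fold changes stood in 30 of the 36, with a median of 0.35, beside a median of -0.003 over all genes tested. DESeq2 called 9 higher and 0 lower, and no filter gave 10. Leaving out single libraries gave 3 higher without caNrf2 2, caNrf2 3 or ctrl 3, 8 without caNrf2 1 and 9 without ctrl 1. In CPM the groups did not overlap in 8 of the 36 (22.2%), against 42.1% of all genes tested.

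**Figure D2:**
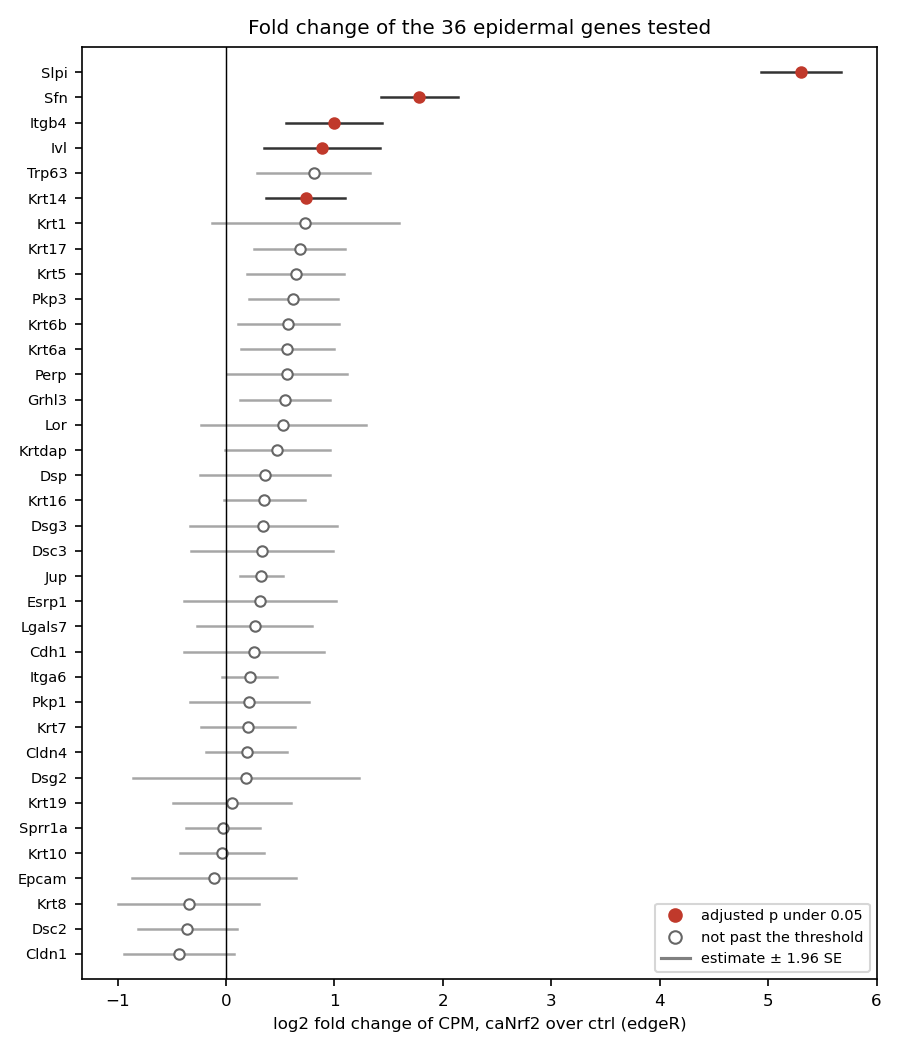
Log2 fold change of CPM, caNrf2 over ctrl, from edgeR for the 36 genes tested, ordered by size, with lines for the 95% interval. Filled points mark the 5 genes past an adjusted p of 0.05, with Slpi at 5.30 and Sfn at 1.78, and open points the 31 that were not past it.

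Slpi and Sfn were the genes with the largest change. Slpi encodes secretory leukocyte peptidase inhibitor, a secreted inhibitor of neutrophil elastase and other serine proteases, made by many epithelia and also by macrophages. Sfn encodes 14-3-3 sigma, a keratinocyte adaptor protein and p53 target. Promoter sequence is shown for these 2 genes and, for comparison, for Krt5 and Dsp, from RefSeq on GRCm38.p6, running from 250 bases before the gene's start to 50 after it. Lower case marks the sequence and capitals mark any match to TGACNNNGC, the core of the antioxidant response element to which Nrf2 binds with a small Maf partner. The Slpi window is chr2:164356458-164356757 on the minus strand.
Slpi: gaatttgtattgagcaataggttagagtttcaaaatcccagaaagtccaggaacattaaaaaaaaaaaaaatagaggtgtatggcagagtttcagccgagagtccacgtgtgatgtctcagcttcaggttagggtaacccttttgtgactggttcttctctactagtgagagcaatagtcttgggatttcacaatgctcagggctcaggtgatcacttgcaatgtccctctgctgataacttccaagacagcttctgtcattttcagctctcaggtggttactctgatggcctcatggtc
The Sfn window is chr4:133602119-133602418 on the minus strand.
Sfn: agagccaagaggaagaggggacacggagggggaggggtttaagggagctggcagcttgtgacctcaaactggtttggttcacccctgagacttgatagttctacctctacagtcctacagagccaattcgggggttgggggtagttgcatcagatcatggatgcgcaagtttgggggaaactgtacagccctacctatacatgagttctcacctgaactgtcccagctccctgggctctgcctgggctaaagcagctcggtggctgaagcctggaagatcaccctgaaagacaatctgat
The Krt5 window is chr15:101712856-101713155 on the minus strand.
Krt5: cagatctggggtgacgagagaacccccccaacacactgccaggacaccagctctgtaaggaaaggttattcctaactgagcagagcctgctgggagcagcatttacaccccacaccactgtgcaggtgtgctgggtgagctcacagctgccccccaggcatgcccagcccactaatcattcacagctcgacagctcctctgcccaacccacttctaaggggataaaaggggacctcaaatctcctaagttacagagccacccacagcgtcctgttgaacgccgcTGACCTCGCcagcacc
The Dsp window is chr13:38151044-38151343 on the plus strand.
Dsp: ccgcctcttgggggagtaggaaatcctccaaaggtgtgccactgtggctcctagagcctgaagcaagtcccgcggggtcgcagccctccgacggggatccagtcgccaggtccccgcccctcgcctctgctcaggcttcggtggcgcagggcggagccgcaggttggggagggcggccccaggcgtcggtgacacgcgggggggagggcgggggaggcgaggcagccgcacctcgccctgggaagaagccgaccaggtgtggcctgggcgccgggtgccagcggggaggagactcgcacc
Both strands were searched. TGACNNNGC stood in the Krt5 window, in its transcribed part, and not in the windows of Slpi, Sfn and Dsp. Of the 39 genes, 20 had a window in the promoter table, and 3 of the 20 held this motif (Krt5, Lgals7 and Sprr1a), against 12.39% of 32851 windows of the same length. TGANTCA, a loose form of the AP-1 motif with any base at its centre, stood in 6 of the 20, against 7.81% of all windows. The 6 were Cldn4, Flg, Ivl, Krtdap, Lor and Sprr1a. The Flg match was TGAATCA, while the matches of the others had C or G at the centre. In Sprr1a a match to each motif overlapped. Of the genes called higher, Ivl was the one with a match to either motif among those with a window. The Krt14 window lies inside the gene, downstream of the start of its most abundant transcript, so the bases before that start were not searched. Slpi-202, the most abundant Slpi transcript, starts 440 bases downstream of the start used for the Slpi window. The bases just before the Slpi-202 start were therefore not searched either.

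Slpi (ENSMUSG00000017002, chromosome 2, 164354070 to 164389095, minus strand, GRCm38) had 3433, 3819 and 2776 expected counts in caNrf2 libraries 1, 2 and 3, against 87, 89 and 51 in ctrl libraries 1, 2 and 3. Its level was 275, 279 and 201 TPM in caNrf2, against 7.02, 6.48 and 5.65 TPM in ctrl. All caNrf2 libraries were far above all ctrl libraries. In CPM it averaged 81.0 ± 15.2 in caNrf2 and 2.04 ± 0.39 in ctrl (SD, n = 3 each), a 39.5-fold difference (log2 5.30, SE 0.19, edgeR adjusted p = 3.09e-07). Of its transcripts, Slpi-201 stood at 132, 136 and 104 TPM in caNrf2 and 4.77, 3.17 and 2.51 TPM in ctrl. Slpi-202, which starts 440 bases downstream of the start used for the promoter window, stood at 142, 143 and 97.0 TPM in caNrf2 and 2.25, 3.31 and 3.02 TPM in ctrl. Both transcripts were higher in every caNrf2 library than in every ctrl library.

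Sfn (ENSMUSG00000047281, chromosome 4, 133600556 to 133602168, minus strand) stood at 78.4, 120 and 79.0 TPM in caNrf2 libraries 1, 2 and 3. In ctrl libraries 1, 2 and 3 it stood at 33.6, 23.7 and 26.3 TPM. The groups did not overlap, although the highest ctrl library was ctrl 1. In CPM it averaged 78.4 ± 17.9 in caNrf2 and 22.8 ± 4.29 in ctrl (SD, n = 3 each), 3.44-fold higher in caNrf2 (log2 1.78, SE 0.18, edgeR adjusted p = 2.08e-04). Sfn made up nearly all of the regulator class. Without it, the other regulators summed to 3.16, 4.86 and 4.71 TPM in caNrf2 and 3.66, 2.07 and 2.98 TPM in ctrl, which overlap.

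Of the 3 basal keratins tested, Krt14 was called and Krt5 and Krt17 were not, and the class sums of the groups overlapped. Krt14 (ENSMUSG00000045545, chromosome 11, 100203162 to 100207548, minus strand), the type I chain of basal cells, stood at 106, 163 and 139 TPM in caNrf2 libraries 1, 2 and 3, and at 108, 66.9 and 78.0 TPM in ctrl libraries 1, 2 and 3. In TPM caNrf2 1 lay just under ctrl 1, and in CPM the groups just did not overlap. It averaged 121 ± 20.8 CPM in caNrf2 and 72.5 ± 18.7 CPM in ctrl (SD, n = 3 each), 1.66-fold higher (log2 0.73, SE 0.18, edgeR adjusted p = 0.0223). That call was lost without caNrf2 2 (log2 0.59), without caNrf2 3 (0.74), without ctrl 2 (0.59) and without ctrl 3 (0.67).

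Krt5 (ENSMUSG00000061527, chromosome 15, 101707070 to 101712891, minus strand), the type II partner of Krt14, stood at 76.6, 146 and 123.4 TPM in caNrf2 and 101, 63.5 and 64.6 TPM in ctrl. The groups overlapped, since caNrf2 1 lay below ctrl 1. It averaged 135 ± 36.01 CPM in caNrf2 and 86.4 ± 24.5 CPM in ctrl (SD, n = 3 each) and was not called (log2 0.64, 95% interval 0.19 to 1.09, edgeR adjusted p = 0.0791). Without caNrf2 1 or without ctrl 1 it was called, at log2 0.84 and 0.89 (edgeR adjusted p = 0.0313 in both). Krt5 was also called with no filter (edgeR adjusted p = 0.0172), but not by DESeq2 or limma-voom. Krt17, the type I keratin of appendage and activated cells, was at 51.7, 81.2 and 70.9 TPM in caNrf2 and 60.4, 34.4 and 36.9 TPM in ctrl (log2 0.68, edgeR adjusted p = 0.0544). Krt17 was called by DESeq2 (adjusted p = 0.00535), by limma-voom (adjusted p = 0.0428), with no filter, and without ctrl 1 at log2 0.97. Krt15, a type I keratin of basal and bulge cells, lay at 0.06 to 0.26 TPM in caNrf2 and 0.13 to 0.18 TPM in ctrl. In these bulk samples fewer cells of a type and less RNA per cell cannot be told apart.

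Of the 3 activation keratins, 0 were called by edgeR, 2 were higher at an unadjusted p under 0.05 (Krt6a and Krt6b), and DESeq2 called 1 (Krt6a) and limma-voom 0. Krt6a (chromosome 15, 101689932 to 101694307, minus strand), a type II keratin of wounded epidermis, stood at 58.8, 110 and 95.8 TPM in caNrf2 libraries 1, 2 and 3, and at 80.0, 51.0 and 53.0 TPM in ctrl libraries 1, 2 and 3. Again caNrf2 1 lay between ctrl 1 and the other ctrl libraries. The log2 fold change was 0.57 (edgeR adjusted p = 0.102), and Krt6a was called without caNrf2 1 (0.76) and without ctrl 1 (0.80). Krt16, the type I partner of Krt6, lay at 8.96 to 16.1 TPM in caNrf2 and 8.52 to 11.1 TPM in ctrl, with log2 0.35 (edgeR adjusted p = 0.214). Krt6b was far lower, at 2.19 to 3.24 TPM in caNrf2 and 1.5 to 2.56 TPM in ctrl (log2 0.57, edgeR adjusted p = 0.123), and was called without ctrl 2 (0.87). Krt6a and Krt6b transcripts are 93.1% identical over 2224 aligned bases, so the division of reads between them is uncertain. Krt16 shares 84.7% and Krt17 82.3% of aligned bases with Krt14.

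Suprabasal keratins gave little RNA. Krt10 stood at 1.11, 1.26 and 1.26 TPM in caNrf2 and 1.43, 1.14 and 1.32 TPM in ctrl, with overlapping groups (log2 -0.04, edgeR adjusted p = 0.917). Krt1 reached at most 0.48 TPM in caNrf2 and 0.23 TPM in ctrl. As a percentage of Krt5 TPM, Krt1 was 0.17%, 0.27% and 0.39% in caNrf2 and 0.22%, 0.36% and 0.28% in ctrl. For these 2 genes, edgeR at an unadjusted p under 0.05, DESeq2 and limma-voom also gave 0 in either direction. Simple-epithelial keratins were also low. Krt19 lay at 3.12 to 4.97 TPM in caNrf2 and 3.26 to 5.27 TPM in ctrl, and Krt7 at 1.56 to 2.95 TPM in caNrf2 and 1.8 to 2.83 TPM in ctrl. Krt8 lay at 0.38 to 0.57 TPM in caNrf2 and 0.44 to 0.88 TPM in ctrl. Its partner Krt18 lay at 0.13 to 0.19 TPM in caNrf2 and 0.09 to 0.28 TPM in ctrl. Of the 3 simple-epithelial keratins tested, 0 were called in either direction, and 0 passed an unadjusted p under 0.05, DESeq2 or limma-voom.

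**Figure D3:**
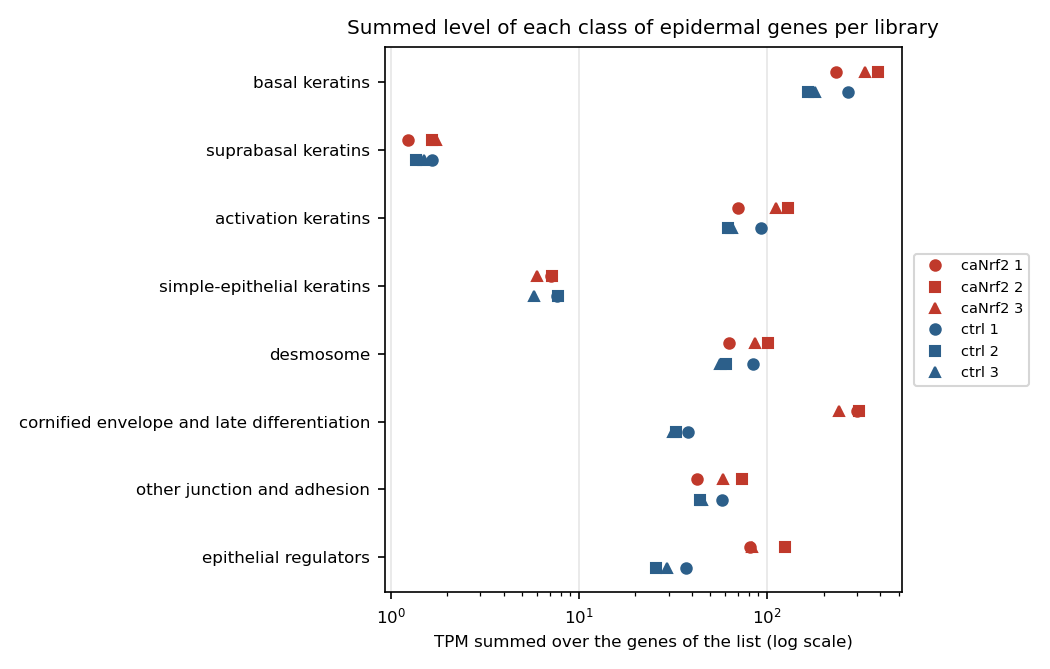
TPM summed over the genes of each class, on a log axis, in each of the 3 caNrf2 libraries (red) and 3 ctrl libraries (blue). In the 4 keratin classes, the desmosome class and the other junction class caNrf2 1 lies below ctrl 1, whereas the cornified envelope class, which contains Slpi, and the regulator class, which contains Sfn, are separated by group.

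Transcripts of all families of desmosome proteins were detected, and 0 of the 9 were called by edgeR in either direction. At an unadjusted p under 0.05, 2 were higher, Jup and Pkp3, which DESeq2 also called, while limma-voom called 0. Their summed level was 62.6, 101 and 86.1 TPM in caNrf2 libraries 1, 2 and 3 and 84.1, 60.4 and 56.1 TPM in ctrl libraries 1, 2 and 3, so the groups overlapped. Dsp (ENSMUSG00000054889, chromosome 13, 38151328 to 38198577, plus strand), which links the plaque to keratin filaments, stood at 5.64, 14.2 and 12.6 TPM in caNrf2 and 11.6, 6.87 and 7.66 TPM in ctrl. Here caNrf2 1 was the lowest of all 6 libraries. The log2 fold change was 0.36 with a 95% interval of -0.24 to 0.96 (edgeR adjusted p = 0.438). Dsg3, a desmoglein of the lower epidermis, was likewise lowest in caNrf2 1, at 1.70, 4.97 and 4.31 TPM in caNrf2 and 4.06, 2.35 and 2.50 TPM in ctrl. Dsc3, the desmocollin of the same layers, lay at 2.17 to 5.26 TPM in caNrf2 and 2.25 to 4.81 TPM in ctrl, and the plakophilin Pkp1 at 3.79 to 8.34 TPM in caNrf2 and 4.45 to 7.93 TPM in ctrl. Dsg2 and Dsc2, the cadherins of simple epithelia, stayed under 1 TPM.

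Jup (ENSMUSG00000001552, chromosome 11, 100368958 to 100397763, minus strand), plakoglobin of desmosomes and adherens junctions, was the most abundant gene of the desmosome class. It stood at 30.6, 40.3 and 34.0 TPM in caNrf2 and 31.1, 32.5 and 25.6 TPM in ctrl. In CPM the groups did not overlap, at 59.4 ± 5.76 CPM in caNrf2 and 47.4 ± 5.01 CPM in ctrl (SD, n = 3 each), and its log2 fold change of 0.33 (SE 0.10) just missed the threshold (edgeR adjusted p = 0.0508). It was called by DESeq2 (adjusted p = 0.0299). Pkp3, a plakophilin of all epidermal layers, had log2 0.62 (edgeR adjusted p = 0.0641) and was called without caNrf2 1 (0.77). Perp, a p63 target needed for desmosome assembly, had log2 0.56 (edgeR adjusted p = 0.192) and was called without ctrl 1 (1.03).

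Among the other junction and adhesion genes, Itgb4 was called. Itgb4 (ENSMUSG00000020758, chromosome 11, 115974709 to 116008412, plus strand), the beta 4 integrin of hemidesmosomes, stood at 6.02, 14.1 and 10.3 TPM in caNrf2 libraries 1, 2 and 3 and at 5.63, 4.73 and 5.63 TPM in ctrl libraries 1, 2 and 3. The groups did not overlap, with caNrf2 1 close above the ctrl libraries. In CPM it averaged 30.6 ± 11.04 in caNrf2 and 15.4 ± 1.04 in ctrl (SD, n = 3 each), 1.99-fold higher (log2 0.99, SE 0.23, edgeR adjusted p = 0.0146). Its partner Itga6 lay at 21.9 to 35.4 TPM in caNrf2 and 22.1 to 24.5 TPM in ctrl (log2 0.22, edgeR adjusted p = 0.266). Cdh1, E-cadherin, stood at 2.00, 4.90 and 4.32 TPM in caNrf2 and 4.65, 2.55 and 2.72 TPM in ctrl. The surface protein Epcam lay at 1.77 to 3.83 TPM in caNrf2 and 2.17 to 5.64 TPM in ctrl, and the claudin Cldn1 at 2.35 to 3.93 TPM in caNrf2 and 3.35 to 6.54 TPM in ctrl. Cldn4, another tight junction claudin, lay at 8.16 to 11.7 TPM in caNrf2 and 6.97 to 11.2 TPM in ctrl. In these 4 genes the groups overlapped and no call was made.

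Of the transcription and splicing regulators, Trp63, the p63 factor of basal keratinocytes, stood at 1.40, 2.37 and 2.58 TPM in caNrf2 and 1.53, 0.83 and 1.30 TPM in ctrl. caNrf2 1 lay under ctrl 1. The log2 fold change was 0.81 (edgeR adjusted p = 0.0612), and Trp63 was called without caNrf2 1 (1.03). It was also called by DESeq2 (adjusted p = 0.0194) and with no filter, but not by limma-voom. The gene has 2 start regions: the 4 transcripts that begin at the internal DeltaN start (chromosome 16, 25801916, GRCm38), the form known from basal epidermis, summed to 1.29, 2.21 and 2.42 TPM in caNrf2 and 1.39, 0.83 and 1.22 TPM in ctrl. The 4 transcripts of the upstream TA start (25683763 to 25683765) summed to at most 0.16 TPM in caNrf2 and 0.14 TPM in ctrl. Nearly all Trp63 RNA was therefore assigned to the DeltaN start in both groups. Grhl3, a factor of barrier formation, lay at 0.87 to 1.07 TPM in caNrf2 and 0.61 to 0.75 TPM in ctrl (log2 0.55, edgeR adjusted p = 0.101), and the epithelial splicing factor Esrp1 at 0.89 to 1.42 TPM in caNrf2 and 0.63 to 1.38 TPM in ctrl (log2 0.31, edgeR adjusted p = 0.565).

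Cornified envelope and late genes other than Slpi did not separate as a class: their sum was 26.7, 31.1 and 38.95 TPM in caNrf2 libraries 1, 2 and 3 and 31.0, 26.2 and 26.2 TPM in ctrl libraries 1, 2 and 3. Ivl (ENSMUSG00000049128, chromosome 3, 92570902 to 92573735, minus strand), a scaffold of the cornified envelope, stood at 0.84, 1.2 and 1.04 TPM in caNrf2 and 0.74, 0.54 and 0.44 TPM in ctrl. It held 34 to 53 counts per caNrf2 library and 13 to 26 per ctrl library, and the groups did not overlap. It was 1.85-fold higher (log2 0.89, SE 0.27, edgeR adjusted p = 0.0487), a call at the edge of the threshold. The call was lost without caNrf2 1 (0.97), caNrf2 2 (0.78), caNrf2 3 (0.89), ctrl 2 (0.84) or ctrl 3 (0.74), and with DESeq2 (0.89).

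The remaining late genes were not called. Sprr1a, a small proline-rich envelope protein, stood at 8.17, 12.4 and 13.4 TPM in caNrf2 and 12.1, 11.7 and 12.2 TPM in ctrl (log2 -0.03, edgeR adjusted p = 0.924). Lgals7, an epithelial galectin, lay at 9.29 to 15.9 TPM in caNrf2 and 8.34 to 12.9 TPM in ctrl. Krtdap, a secreted product of differentiating keratinocytes, lay at 7.14 to 8.23 TPM in caNrf2 and 4.79 to 5.19 TPM in ctrl. Krtdap was separated in TPM but overlapped in CPM (log2 0.47, edgeR adjusted p = 0.205), with 23 to 58 counts per library. Loricrin (Lor) was at 0.28 to 0.62 TPM in caNrf2 and 0.30 to 0.40 TPM in ctrl. Filaggrin (Flg) held 2 counts in caNrf2 3 and 0 in the other libraries. Among the late genes other than Slpi, Sprr1a, Lgals7 and Krtdap were therefore the abundant ones in both groups.

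Within the groups most of the epidermal genes shared an order of the libraries. caNrf2 1 was the lowest caNrf2 library in 30 of the 36 genes tested (83.3%), against 39.6% of all genes tested, and caNrf2 2 was the highest in 26, against 33.5% of all genes tested. ctrl 1 was the highest ctrl library in 29 of the 36, against 37.7% of all genes tested. These genes are not independent of one another, and the counts describe these 6 libraries. As a multiple of the ctrl mean, Krt5 stood at 1.0, 1.92 and 1.62 in caNrf2 libraries 1, 2 and 3 and at 1.32, 0.83 and 0.85 in ctrl libraries 1, 2 and 3. Dsg3 stood at 0.57, 1.67 and 1.45 in caNrf2 and 1.37, 0.79 and 0.84 in ctrl, and Cdh1 at 0.61, 1.48 and 1.31 in caNrf2 and 1.41, 0.77 and 0.82 in ctrl. In all 3 genes caNrf2 1 was the lowest caNrf2 library and ctrl 1 the highest ctrl library. In Slpi the lowest caNrf2 library was caNrf2 3, with multiples of 43.0, 43.7 and 31.6 in caNrf2 and 1.1, 1.02 and 0.89 in ctrl.

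**Figure D4:**
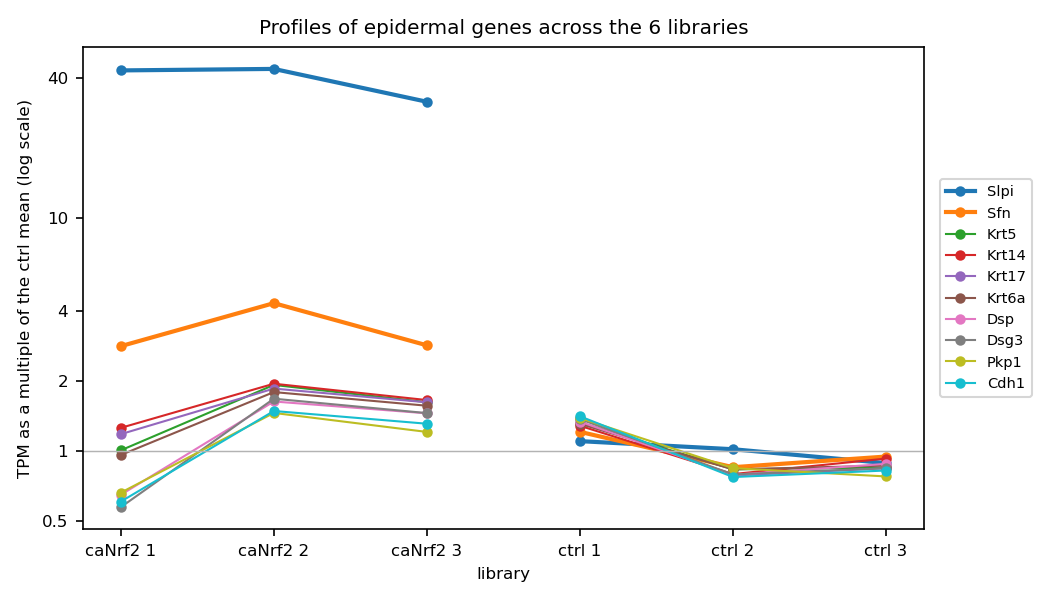
TPM of 10 epidermal genes in the 6 libraries as a multiple of the mean of the ctrl libraries, on a log axis, with 1 line per gene and the caNrf2 libraries on the left. The keratin and junction genes share a low caNrf2 1 and a high ctrl 1, while Slpi stands at 31.6 to 43.7 and Sfn at 2.81 to 4.31 times the ctrl mean in caNrf2.

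Ratios to Krt5 within each library set the epidermal genes against a basal keratin. Of the other 35 genes tested, 2 had a TPM ratio to Krt5 above all ctrl libraries in every caNrf2 library, 11 (31.4%) had one below, and 22 overlapped. Over all genes tested, 3.47% were above and 25.6% below, 29.1% in all. The 2 above were Slpi and Sfn. Slpi was 3.58, 1.91 and 1.63 times Krt5 in caNrf2 libraries 1, 2 and 3, against 0.070, 0.10 and 0.0875 in ctrl libraries 1, 2 and 3. Sfn was 1.02, 0.82 and 0.64 times Krt5 in caNrf2 and 0.33, 0.37 and 0.41 in ctrl. With Krt14 in place of Krt5, or the sum of Krt5, Krt14 and Krt6a, the 2 genes were again Slpi and Sfn. These keratins kept close ratios to Krt5, and Slpi and Sfn had the largest changes, so this adds no separate support. The ratios were chosen after the data were seen. Leaving out ctrl 3 added Itgb4 and Trp63, leaving out ctrl 2 added Ivl, and leaving out caNrf2 3 added Pkp3. An exact two-sided permutation test of 3 against 3 libraries cannot go below p = 0.1.

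The more abundant basal and activation keratins kept close ratios to Krt5. Krt17 was 0.68, 0.56 and 0.57 times Krt5 in caNrf2 and 0.60, 0.54 and 0.57 in ctrl, and Krt6a was 0.77, 0.75 and 0.78 times Krt5 in caNrf2 and 0.79, 0.80 and 0.82 in ctrl. Krt14 was 1.38, 1.12 and 1.13 times Krt5 in caNrf2 and 1.07, 1.05 and 1.21 in ctrl. Krt6a lay a little below ctrl in every caNrf2 library, while Krt17 and Krt14 overlapped. The less abundant keratins varied more, with Krt16 at 0.10 to 0.12 times Krt5 in caNrf2 and 0.11 to 0.17 in ctrl, and Krt6b at 0.022 to 0.029 in caNrf2 and 0.015 to 0.040 in ctrl. Krt5 itself averaged 115.5 TPM in caNrf2 and 76.3 TPM in ctrl, which lowers the ratio of a gene with an equal level in both groups. The share of genes below, 31.4%, was near the 25.6% of all genes tested. The 11 genes below were Krt6a, Krt8, Dsp, Dsg3, Dsc2, Pkp1, Sprr1a, Epcam, Cdh1, Cldn1 and Cldn4. Krt8 and Dsc2 stayed under 1 TPM in every library. With the share near that of all genes, no pattern is read from the classes of these genes. Set against Krt14, Dsp was 0.053, 0.087 and 0.091 times Krt14 in caNrf2, and 0.11, 0.10 and 0.098 times in ctrl. Without Slpi and Sfn, the other 37 genes summed to 447, 739 and 640 TPM in caNrf2 and 547, 369 and 383 TPM in ctrl.

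Further keratinocyte genes were read from 7 lists outside the 39. Of 92 listed, 61 were tested, 10 were called higher, 2 lower and 49 not called, a share of 19.7% beside 21.5% of all genes, with a median log2 fold change of 0.32. Hemidesmosome and basal adhesion genes held 5 of the 10, from 11 tested, with 1 lower. Among the 5, the hemidesmosome collagen Col17a1, chosen for mention after its values were seen, overlapped between groups in CPM (log2 0.80, edgeR adjusted p = 0.0499). Its call was lost without caNrf2 2 (0.53), caNrf2 3 (0.77), ctrl 2 (0.69) or ctrl 3 (0.715), and with DESeq2 (0.80). In this list Cd151, a tetraspanin partner of laminin-binding integrins, was 2.46-fold higher at 157 ± 14.95 CPM in caNrf2 and 63.9 ± 11.4 CPM in ctrl (SD, n = 3 each; edgeR adjusted p = 2.14e-04). Itga3, the alpha 3 integrin, was 2.15-fold higher (edgeR adjusted p = 0.00265). Cdh3, P-cadherin, was lower at 7.98 ± 0.97 CPM in caNrf2 and 17.7 ± 3.25 CPM in ctrl (SD, n = 3 each), log2 -1.15 (edgeR adjusted p = 0.00107). Several genes of this list, such as the cytoskeletal linkers Plec and Dst, which were not called, are also known outside epithelia. Which cells held the RNA of Cd151, Itga3 and Cdh3 was not tested. The desmosome list (7 tested) and the list of epithelial surface proteins and proteases (10 tested) held 0 edgeR calls. At an unadjusted p under 0.05 the first had 2 higher and the second 0, DESeq2 called 0 in both, and limma-voom called 1 in the first and 0 in the second.

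Single genes of the other lists were called. Krt76, a type II keratin, held 29, 48 and 32 counts in caNrf2 libraries 1, 2 and 3 and 0 in each ctrl library. Against a floor of 3 counts per ctrl library it was at least 10.4-fold higher (edgeR adjusted p = 4.68e-04). Tgm3, a transglutaminase of the cornified envelope and hair follicle, held 45, 40 and 36 counts in caNrf2 and 2, 3 and 4 in ctrl (edgeR adjusted p = 3.64e-04). Both genes held few counts in caNrf2 and nearly none in ctrl, and they passed the filter on low counts only through the caNrf2 libraries, so their adjusted p-values are a description. Sbsn, the secreted protein suprabasin, was 2.49-fold higher at 26.7 ± 2.60 CPM in caNrf2 and 10.7 ± 0.84 CPM in ctrl (SD, n = 3 each; edgeR adjusted p = 4.4e-05). Among the regulators, Klf5, a factor of proliferating epithelia, was 3.06-fold higher (edgeR adjusted p = 1.19e-04), and Klf4, a barrier factor, was lower at 84.0 ± 2.15 CPM in caNrf2 and 127 ± 2.02 CPM in ctrl (SD, n = 3 each), log2 -0.59 (edgeR adjusted p = 4.2e-04). None of these 5 genes overlapped between groups in CPM, as did not 42.1% of all genes tested. The 5 were named for their small adjusted p, so this adds no separate support.

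Markers of other cell types also differed between the groups. Over all genes tested, 12.5% were called higher in caNrf2 and 9.03% lower. All 9 macrophage markers were called higher in caNrf2, with summed levels of 212, 240 and 199 TPM in caNrf2 libraries 1, 2 and 3 and 26.2, 79.6 and 81.4 TPM in ctrl libraries 1, 2 and 3. Lyz2, a lysozyme and the most abundant of them, averaged 149 TPM in caNrf2 and 42.3 TPM in ctrl. Among the ctrl libraries the order was unlike that of the keratins, since ctrl 1, the ctrl library with the most keratin RNA, had the least macrophage RNA. Among the caNrf2 libraries caNrf2 2 was the highest in both, with basal keratins at 391 TPM. The lowest was caNrf2 3 for macrophage markers and caNrf2 1 for basal keratins. Slpi and Sfn were higher in the same group as these markers, and the part of macrophage RNA in their levels was not tested. Skeletal muscle markers were called higher in 4 of 6 tested, with sums of 91.8 to 121 TPM in caNrf2 and 62.4 to 71.7 TPM in ctrl. Acta1, the most abundant of them, was called higher, at 58.7 TPM in caNrf2 and 34.1 TPM in ctrl on average (edgeR adjusted p = 6.89e-04). Myod1 and Myog of this list were above 1 TPM in all 6 libraries. Pax7 and Myf5, which mark muscle stem cells and early myoblasts, were near 0.

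The counts called in the other lists stand beside 12.5% of all genes tested called higher and 9.03% lower. Most of these lists are short, and differences between them were not tested. Csf1r, called higher, is in both the macrophage and the Langerhans cell list. Schwann cell markers were called higher in 2 of 6 tested (17.7 to 22.3 TPM in sum in caNrf2, 11.1 to 17.1 TPM in ctrl), endothelial markers in 1 of 6 (15.7 to 16.6 TPM in caNrf2, 10.95 to 13.6 TPM in ctrl) and Langerhans cell markers in 2 of 5 (22.0 to 28.3 TPM in caNrf2, 13.5 to 22.0 TPM in ctrl), with the Langerhans cell marker Cd207 at 0 in all libraries. Melanocyte markers held 0 calls of 7 tested, also at an unadjusted p under 0.05 and by DESeq2 and limma-voom, at 17.9 to 24.1 TPM in caNrf2 and 16.6 to 22.9 TPM in ctrl. Of the mesothelial markers 1 of 3 tested was called higher, at 1.97 to 2.58 TPM in sum in caNrf2 and 1.23 to 2.22 TPM in ctrl. Hair follicle markers summed to 1.90 to 2.11 TPM in caNrf2 and 1.30 to 1.67 TPM in ctrl, with 1 of 2 tested called higher. Those 2 were Gata3, called higher at 0.97 TPM in caNrf2 and 0.54 TPM in ctrl, and Tchh, not called at 0.98 and 0.88 TPM. Krt25, Krt27, Krt35 and Shh were at 0 in every library. Merkel cell markers held 1 call of 3, Piezo2, a mechanosensitive channel also found outside Merkel cells, which was lower in caNrf2 (2.08 TPM in caNrf2 and 6.03 TPM in ctrl on average). Atoh1 and Krt20, which define Merkel cells, were near 0, while Sox2 of the same list averaged 0.70 TPM in caNrf2 and 0.55 TPM in ctrl and was not called. The 10 fibroblast markers summed to 13960 to 15430 TPM in caNrf2 and 17490 to 23340 TPM in ctrl, with 2 called higher and 4 lower. The part of these cell types in the values of the epidermal genes was not tested.

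**Figure D5:**
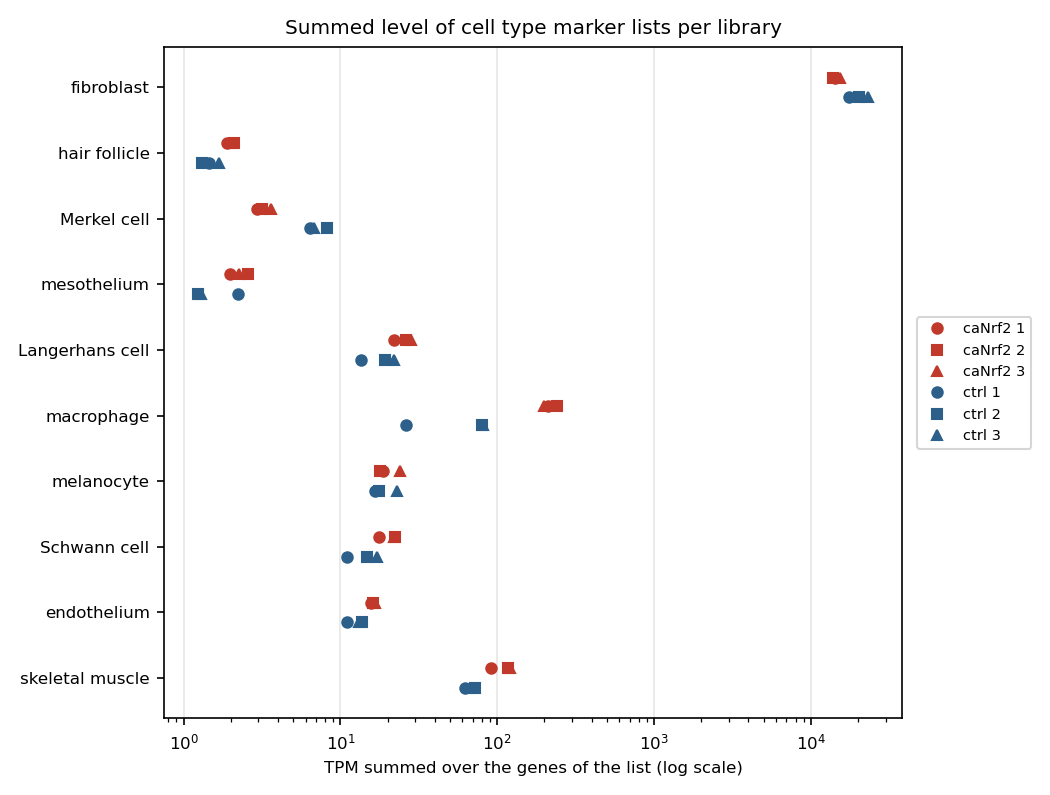
TPM summed over each cell type marker list, on a log axis, in the 3 caNrf2 libraries (red) and the 3 ctrl libraries (blue). Macrophage markers lie at 199 to 240 TPM in caNrf2 and 26.2 to 81.4 TPM in ctrl, and fibroblast markers are the most abundant list in all 6 libraries.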

How the data were processed

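The authors deposited a table per library of 104129 transcripts, with columns that per the file headers hold expected counts, TPM and FPKM. Expected counts are estimates that need not be whole, and TPM are the authors' length-scaled levels. FPKM was not used. RSEM 1.2.21, CASAVA 1.8 and GRCm38 come from the submitters' processing notes. Strand setting, aligner and annotation release were not given in the sources used here. Reads of a gene and an antisense partner therefore cannot be told apart.

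For tests, the expected counts of a gene's transcripts were added up and rounded to whole numbers; for levels, TPM were added up. Symbols from a gene name table matched 42462 of 43629 IDs. Listed genes Krt85 and Muc16 were not matched. In R 4.3.3, edgeR 4.0.16 was used with filterByExpr (minimum count 10, minimum total 15), TMM and a two-sided quasi-likelihood F test, with Benjamini-Hochberg adjustment over 15341 genes and a threshold of 0.05. A gene past it is said to be called. SE derive from the F statistic, and 95% intervals are normal intervals on that SE, narrower than the F test would give. DESeq2 1.42.0 and limma-voom (limma 3.58.1) were alternatives, beside other normalizations and filters, posterior mean and unrounded counts, each library left out and a replicate block. On simulated counts for 15148 genes, 94 of 100 genes changed 2-fold and 52 of 100 changed 1.5-fold were called, with 17 of 14948 unchanged genes. The changed genes were drawn only from genes above a minimum mean CPM. Recovery of genes with few counts, such as Ivl, Lor and Krt1, was therefore not measured.

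A single read was worth 0.0223 to 0.0331 CPM, which limits Flg, Krt15 and Krt18. The text names all 39 genes, Nfe2l2 and Nqo1, at most 2 called genes of smallest adjusted p per direction in each further list, and the most abundant and the best-called gene of cell type lists. Of the genes this rule names, 1 is not reported here. Other marker genes, named at or near 0 or set beside such genes, were chosen after their values were seen. The members and lists were chosen with earlier results of these data known. Promoter windows, motif searches and coordinates are described in the report.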

Additional observations from a re-analysis of the deposited data

How the results depend on the processing

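Slpi, Sfn and Itgb4 were called higher in all 16 alternatives, and no epidermal gene was called lower in any of them. The number of epidermal genes called higher was 10 with no filter and 9 with DESeq2, and ranged from 3 to 9 over the libraries left out. The gains were mostly Krt5, Krt6a, Krt17, Pkp3, Trp63 and Jup. Ivl was lost with upper-quartile factors, total counts, no filter and the replicate block. Over all genes, those called lower ranged from 823 to 1143 and those higher from 1342 to 1755 with a library left out, and the number of epidermal genes detected from 30 to 31. Genes that changed sign without being called did so only when a library was left out: Dsg2 (log2 -0.12 to 0.87), Epcam (-0.37 to 0.43), Krt10 (-0.13 to 0.035), Krt19 (-0.21 to 0.36), Pkp1 (-0.015 to 0.53) and Sprr1a (-0.16 to 0.12). Among the ratios to Krt5, chosen after seeing the data, the genes above ctrl numbered 2 to 4 with a library left out. The causes of these changes were not tested.

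Same-numbered libraries did not deviate together in all pairs (r = 0.21, 0.21 and 0.095), and caNrf2 3 went best with ctrl 2 (0.11), so the numbers were not taken as pairs. With the replicate number as a block, 1888 genes were called higher and 1330 lower, and 5 epidermal genes were higher, 4 of them shared with the fit without a block. Depth limits genes with few counts, Ivl and Krt76 among them, more than the abundant keratins.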
